A study of Mus musculus with 5 samples.

Results

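The transcript levels of 83 genes for proteins of the cytosolic ribosome are described here across 5 libraries of mouse gastrocnemius, a mainly fast muscle of the calf. They were chosen by name from the 35275 genes of the table, as the protein-coding genes with an Rpl or Rps symbol that continues with a number, together with Rplp0, Rplp1, Rplp2 and Rpsa. The S6 kinases, Rps19bp1, pseudogene symbols ending in -ps, and Rpl3 with its muscle form Rpl3l were left out. The set holds 50 proteins of the large subunit and 33 of the small subunit, close relatives of known ribosomal proteins included. The rule itself uses names and no measured value.

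Each cytosolic ribosome is built from a small subunit, which decodes the messenger RNA, and a large subunit, which forms the peptide bond and holds the exit tunnel of the new chain. The proteins are made in step with each other, and most of their messages start with a C and a tract of pyrimidines, the terminal oligopyrimidine (TOP) motif, through which the kinase mTOR and the binding protein Larp1 control their translation and stability. In skeletal muscle the supply of ribosomes is known to set the capacity for protein synthesis during growth, regeneration and wasting.

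The muscle came from female mice of the NSG strain, which lacks mature lymphocytes, at an age of 12 weeks; the labels give the genotype as Wild Type. The mice had been injected into the tail vein 10 times, at 2 injections per week over 5 weeks, with about 10 µg of extracellular vesicles per injection from cells labelled MCF-10A/miR122, a human mammary epithelial line named with the liver microRNA miR-122. RNA was taken from about 20 mg of gastrocnemius 2 days after the last injection and selected on poly-T beads. All 5 libraries, numbered as in the labels, belong to this 1 group, so no treated library is set against an untreated one, and whether the numbers stand for different animals is not spelled out in the labels. The spread between libraries given below may therefore be partly technical.

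Values are FPKM, reads per kilobase of gene scaled to the total reads of the library. The library totals estimated from the steps of the values ran from 16674504 reads in library 3, the lowest, to 25407988 in library 5. The fibre genes Acta1, Tnnt3 and Mylpf averaged 32368, 15842 and 11145 FPKM, which fits the labelled tissue. Among the 10710 genes with a mean of at least 1 FPKM (all genes tested, below), library 3 held the highest value of 37.4%, against 7.68% to 23.2% for each other library, and library 4 the lowest value of 38%. With the median-of-ratios scaling described below, libraries 3 and 4 held the highest value of 27% and 27.5%. The share of reads from mitochondrial genes in library 3 was 8.55%, inside the range of 7.65% to 9.89% over the 5 libraries.

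The start sites of 10 members are shown because the TOP tract is the sequence feature for which these genes are known, and because the members shown went different ways between the libraries. Each line gives 15 bases before and 15 bases from the annotated start, 5′ to 3′ on the gene's strand, with the longest run of pyrimidines in capitals.
Rps6: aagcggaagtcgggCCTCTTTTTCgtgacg
Rplp2: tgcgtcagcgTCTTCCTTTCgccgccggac
Rpl38: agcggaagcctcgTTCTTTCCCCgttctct
Rpl35: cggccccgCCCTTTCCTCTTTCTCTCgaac
Rpl34: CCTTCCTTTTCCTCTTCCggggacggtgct
Rpl35a: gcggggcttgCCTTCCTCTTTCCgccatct
Rpl11: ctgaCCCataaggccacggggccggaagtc
Rps28: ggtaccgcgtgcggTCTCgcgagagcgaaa
Rps27: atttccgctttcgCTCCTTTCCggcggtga
Rpl22l1: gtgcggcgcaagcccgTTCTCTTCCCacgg

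The sequences are from RefSeq on GRCm38.p6. They lie at chr4:86857353-86857382 (minus strand) for Rps6, chr7:141447636-141447665 (plus) for Rplp2, chr11:114668565-114668594 (plus) for Rpl38, chr2:39005117-39005146 (minus) for Rpl35 and chr3:130730323-130730352 (minus) for Rpl34. The others lie at chr16:33056467-33056496 (plus) for Rpl35a, chr4:136053379-136053408 (minus) for Rpl11, chr17:33824548-33824577 (minus) for Rps28, chr3:90213634-90213663 (minus) for Rps27 and chr3:28805493-28805522 (plus) for Rpl22l1. Rpl34 and Rpl35a have more than 1 annotated start, and the start with the longest run is shown. The run is 18 bases long in Rpl35 and in Rpl34, 13 in Rpl35a, 10 in Rps6, Rplp2, Rpl38 and Rpl22l1, 9 in Rps27, 4 in Rps28 and 3 in Rpl11 as annotated.

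Of the 83 members, 64 had a window from 250 bases before to 50 bases after a start, and the same windows were read for 17492 protein-coding genes. A run of 8 or more C or T within 20 bases of the start was found in 30 of 64 members (46.9%), against 18.3% of all genes. A C followed by at least 4 pyrimidines within 5 bases of the start, which overlaps the first motif, was likewise found in 30 (46.9%), against 21.5% of all genes. CCGGAAG, a core bound by ETS and GABP factors, was present on either strand in 26 (40.6%) against 12.9%. AAGATGG, a core of the YY1 site that also arises from a start codon, was present in 10 (15.6%) against 7.18%, and TATAAA in the 50 bases before the start in 1 (1.56%) against 3.81%. These matches describe the letters in the windows and not binding.

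As a group the members made up 1.71% ± 0.249 of all reads (SD, n = 5). Their FPKM values summed to 16256, 16889, 22255, 20051 and 16662 in libraries 1 to 5. Library 3 was the highest and library 4 the next, and libraries 1, 2 and 5 lay close together. The sum in library 3 was 1.27-fold the mean of the other libraries. Of the 83 members, 80 had a mean of 1 FPKM or more, 47 of the large and 33 of the small subunit; 60 of them were at 100 FPKM or more and 19 between 10 and 100. The median member stood at 207 FPKM. The median level of the large subunit members, on the log2(FPKM + 1) scale, was lower than that of the small subunit members by a difference of -0.20 ± 0.05 (SD over libraries, n = 5). The difference was -0.52 without members that have near-identical copies or -like names, and -0.13 per coding length in place of the length behind the FPKM values.

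**Figure D1:**
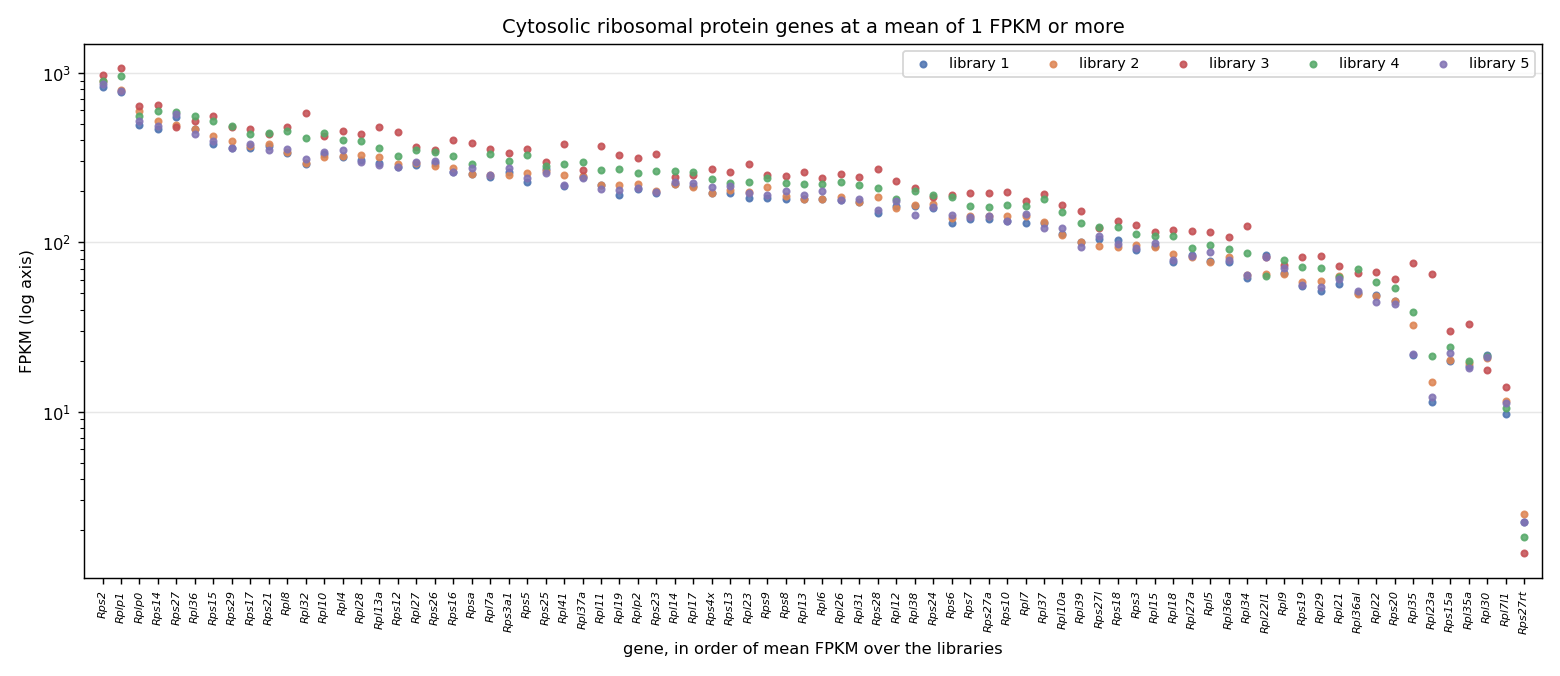
FPKM (log axis) of members with a mean of at least 1 FPKM, in order of mean level, with 1 point for each of the 5 libraries. Red points (library 3) are the highest for most members, with green points (library 4) mostly next; Rps27, Rpl30 and Rps27rt have library 3 lowest.

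Rps2, a small subunit protein near the entry of the messenger RNA channel, was the most abundant member at 828, 898, 966, 899 and 859 FPKM in libraries 1 to 5. It was also the steadiest, with a coefficient of variation (SD over mean between libraries) of 5.83%. Rps14, on the platform of the small subunit, averaged 542 ± 74.5 FPKM and Rps15 454 ± 79.2 (SD, n = 5). Rpl36 of the large subunit averaged 489 ± 47.4 FPKM and Rps27, a zinc-binding protein of the small subunit, 537 ± 49.6. The values of Rps2 and Rplp1 overlap between libraries, as do those of neighbours in the order of means from Rplp0 to Rps15, so their order is not resolved beyond their spread.

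The stalk proteins, which recruit the GTPase factors of elongation to the large subunit, were among the most abundant. Rplp1 stood at 773, 790.3, 1065, 952 and 778 FPKM, and Rplp0, which anchors the stalk, at 492, 594, 641, 559 and 519.6. Rplp2, which pairs with Rplp1, stood at 206, 222, 313, 255 and 210.1. Libraries 3 and 4 were the 2 highest for Rplp1 and Rplp2, whereas for Rplp0 library 2 exceeded library 4. The level of Rplp1 exceeded that of Rplp2 in 5 of 5 libraries, by 1.85 ± 0.06 on the log2(FPKM + 1) scale and by 0.91 ± 0.06 per coding length.

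Rpl5 and Rpl11, which join the ribosomal RNA of the central protuberance and, when free, bind the p53 ligase Mdm2, differed in level. Rpl5 stood at 77.1, 76.3, 115, 96.9 and 88.1 FPKM and Rpl11 at 218, 219, 372, 266 and 206. Library 3 was highest for both, at 1.36-fold and 1.64-fold the mean of the others. Rpl10, which is added last when the large subunit matures, stood at 331, 318, 425, 442 and 340.2 FPKM, with library 4 above library 3. Rpl13a, a member known to leave the ribosome and silence inflammatory messages, stood at 294, 317, 476, 362 and 286, with library 3 at 1.51-fold the others. Rpl38, known for the translation of Hox messages, stood at 164, 166, 208, 202 and 144, and libraries 3 and 4 lay above the other three.

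Among small subunit members with a known second role, Rps6, the substrate of the S6 kinases, stood at 130.3, 139, 191, 186 and 144 FPKM. Libraries 3 and 4 were close to each other and above the rest. Rpsa, also described as a laminin receptor, stood at 255, 253, 387, 292 and 274, and here library 3 alone was set apart. Rps18, in wide use as a reference gene, stood at 103, 93.4, 134, 124 and 98.4, so that its highest and lowest libraries differed as those of the other members did. Rps19, the protein most often mutated in Diamond-Blackfan anaemia, stood at 55.1, 58.4, 81.8, 71.7 and 56.1. Rps27a, which is made as a fusion with ubiquitin, stood at 138, 142, 194, 162 and 143. Both had libraries 3 and 4 as their 2 highest.

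At the low end, 8 members passed the filter with the lowest means. Rps20 averaged 49.5 ± 7.504 FPKM, Rpl35 38.1 ± 22.3, Rpl23a 25.04 ± 22.8 and Rps15a 23.3 ± 4.07 (SD, n = 5). Rpl35a averaged 21.9 ± 6.33, Rpl30 20.6 ± 1.62, Rpl7l1 11.4 ± 1.60 and Rps27rt, a retrogene copy of Rps27, 2.05 ± 0.406. Rps27rt was the only member just inside the filter, and 89.5% of its 100-base windows are found letter for letter in other genes, Rps27 among them, so that its reads are uncertain. Just outside stood Rpl24 at 0.516, 0.558, 0.0886, 0.124 and 0.465 FPKM, which rests on at most 8 reads in a library. The gene Gm28037 overlaps Rpl24 on the same strand, 80.1% of the windows of Rpl24 are found in other genes, and Gm28037 was listed at 0 in all 5 libraries. Rpl39l averaged 0.207 ± 0.180 FPKM, and Rpl10l was listed at 0 in every library; both are copies known from the testis.

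Most members were high in the same libraries. Of the 80 members at 1 FPKM or more, 64 had their highest value in library 3, where 37.4% of all genes tested had theirs. Library 4 was highest for 13 members, with 10.5% of all genes tested. Libraries 1 and 2 were highest for 2 and 1 members, with 21.2% and 23.2% of all genes, and library 5 for 0 members, with 7.68%. The lowest value lay in library 1 for 43 members (10.2% of all genes tested), in library 5 for 17 (24.9%), in library 2 for 16 (9.8%) and in library 3 for 3 (17.1%). Library 4, the lowest library of 38% of all genes tested, was lowest for 1 member, Rpl22l1. Both subunits took part, with library 3 highest for 37 of 47 large and 27 of 33 small subunit members. In bulk tissue a different number of cells of a type and a different amount of RNA per cell cannot be told apart.

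Which of the 2 libraries came out highest depended on the kind of scaling. With median-of-ratios scaling, in which each library is divided by the median ratio of its genes to their mean over libraries, library 3 was highest for 23 members (27% of all genes tested) and library 4 for 55 (27.5%). That scaling moved the median of all genes in library 4 from -0.10 to 0.02 on the log2 scale. The pair of libraries 3 and 4 did not depend on it in the same way. They were the 2 highest for 73 of 80 members, against 9.52% of all genes tested, a count looked at after the values were seen. The count was 69 with median-of-ratios scaling (14.2% of all genes), 69 with all values of a library rescaled to the same sum, as in TPM (6.55%) and 68 with mitochondrial and the 10 most abundant genes left out (6.74%). With these last 2 scalings library 3 was highest for 70 and 68 members, for which the share of all genes was not counted. Without library 3, library 4 was highest for 74 of 80 members, against 17.2% of all genes tested.

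The size of the shift was moderate and similar across most members. On the log2(FPKM + 1) scale the median member deviated from its own mean by -0.18, -0.12, 0.30, 0.14 and -0.14 in libraries 1 to 5. The median of all genes tested deviated by 0.03, 0.05, 0.06, -0.10 and -0.07. Library 3 exceeded the mean of the others by a median of 0.38 over the members, with a range of -0.37 to 2.09, and by 0.08 over all genes tested. It lay above that mean for 77 of the 80 members. For all genes tested this share was not counted, and their median of 0.08 was also above 0. The median fold of the members on the FPKM scale was 1.30. The medians were 0.40 for the large and 0.36 for the small subunit. With median-of-ratios scaling the median member deviated by -0.24, -0.21, 0.21, 0.29 and -0.04.

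**Figure D2:**
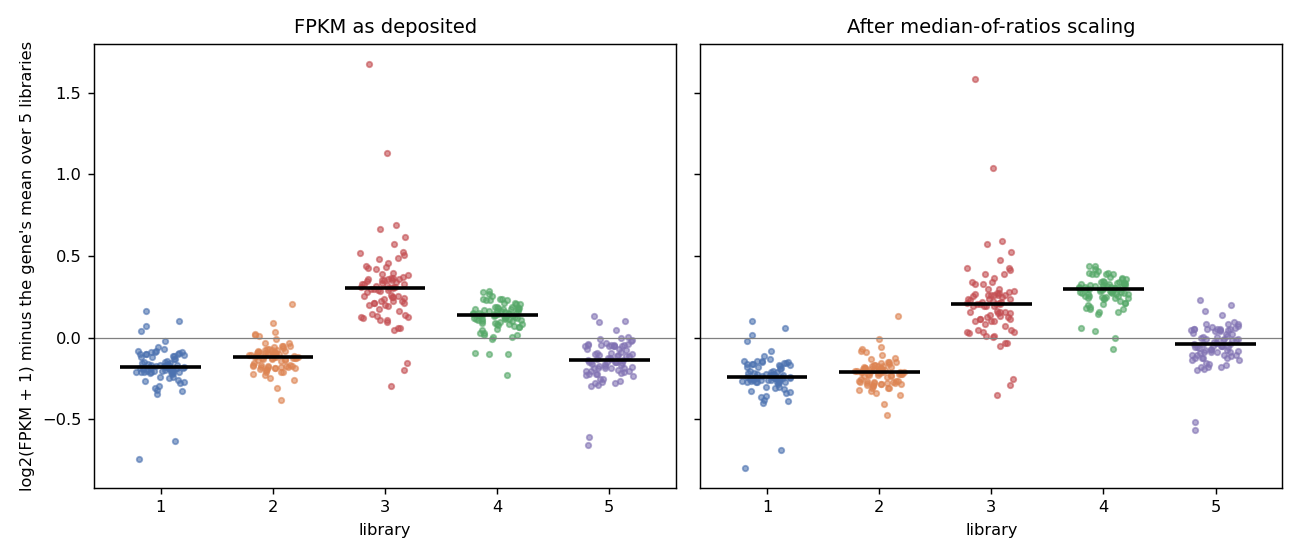
Deviation of each of the 80 members from its own mean over the 5 libraries, as log2(FPKM + 1), for FPKM as deposited and after median-of-ratios scaling; points are members and black bars their medians. The medians are 0.30 in library 3 and 0.14 in library 4 as deposited, and 0.21 and 0.29 after scaling, with libraries 1, 2 and 5 below 0 in both.

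A few members went beyond the common shift. Rpl23a, which sits at the mouth of the exit tunnel where the signal recognition particle docks, stood at 11.4, 14.96, 65.3, 21.3 and 12.2 FPKM. Library 3 was 4.36-fold the mean of the others, and without it library 4 still led. Rpl35, its neighbour at the same exit, stood at 21.6, 32.3, 75.8, 38.8 and 21.97, with library 3 at 2.64-fold. These were the 2 members with library 3 at 2-fold or more over the others, against 5.51% of all genes tested, so 2 of 80 is below the background. Of the windows of Rpl23a, 80.0% are found in other genes, against 30.7% for Rpl35.

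Rpl34, a large subunit protein, stood at 61.4, 64.4, 125, 85.9 and 64.5 FPKM, and Rpl32, also of the large subunit, at 291, 294, 578, 413 and 311. Library 3 was 1.81-fold and 1.77-fold the mean of the others, and library 4 was next in both. None of the windows of Rpl32 is found in another gene. Rpl35a, mutated in some cases of Diamond-Blackfan anaemia, stood at 18.6, 19.5, 33.1, 19.9 and 18.2, so that library 3 was high at 1.74-fold and the other libraries lay within 2 FPKM of each other. Rps23, at the decoding centre, stood at 196, 201, 331, 262 and 199, and Rpl41, the shortest of the ribosomal proteins, at 215, 249, 380, 291 and 218. Rps28 stood at 149, 185, 271, 208 and 154. For Rps23, Rpl41 and Rps28 the fold of library 3 over the others was 1.54, 1.56 and 1.56.

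Other members did not follow the group. Rpl30, a large subunit protein at the interface of the subunits, stood at 21.6, 20.9, 17.7, 21.4 and 21.2 FPKM, and library 3 was the lowest at 0.832-fold the mean of the others. Rps27 stood at 549, 491, 479, 591 and 574, again with library 3 lowest, at 0.869-fold. Rps27rt, at 2.24, 2.48, 1.46, 1.82 and 2.23, was the only other member lowest in library 3, on 9 to 21 reads in a library. Rps27 and Rps27rt share sequence, with 98.4% of the windows of Rps27 found in other genes, whereas for Rpl30 the share was 32.5%. Rpl22l1 stood at 83.6, 65.2, 81.8, 63.7 and 82.1, and was the only member with libraries 1 and 5 as its 2 highest.

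**Figure D3:**
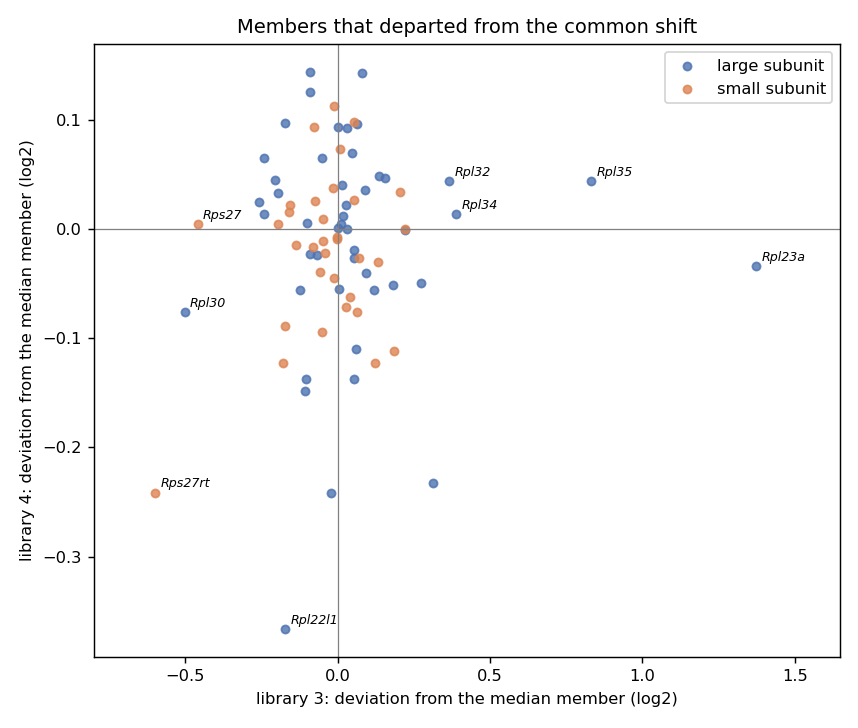
Deviation of each member from the median member in library 3 (horizontal) and library 4 (vertical), on the log2(FPKM + 1) scale, coloured by subunit. Rpl23a (1.37) and Rpl35 (0.83) lie far to the right, Rps27rt (-0.60), Rpl30 (-0.50) and Rps27 (-0.46) to the left, and Rpl22l1 (-0.37 in library 4) at the bottom.

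The 13 members with library 4 on top included Rps27, Rpl36, Rps29, Rps21, Rpl10, Rpl37a, Rpl14, Rpl17, Rps24, Rps27l, Rpl9 and Rpl36al. Rps29, the protein with the shortest coding sequence of the small subunit in this set, stood at 358, 397, 481, 484 and 358 FPKM, with libraries 3 and 4 about level. Rpl36 stood at 469, 466, 521, 554 and 435. Rps24, at 158, 168, 186, 191 and 161, varied little, as did Rpl14 at 220.2, 222, 241, 262 and 227. In all 13 except Rps27, library 3 was the next highest. Of the others named, Rpl36al averaged 57.4 FPKM and Rps21 396 FPKM.

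With FPKM as deposited and all 5 libraries, the spread between libraries was about that of all genes tested. The median coefficient of variation was 15.8% for the members and 16.3% for all genes tested, while counting error alone gives a median of 1.57% for the members. With median-of-ratios scaling the medians were 18.0% and 15.6%, and without library 3 they were 10.6% and 14.2%, so the order depends on these choices. The smallest values after that of Rps2 were 6.26% for Rps25, 7.52% for Rpl14, 7.88% for Rpl30, 7.92% for Rpl9 and 8.38% for Rps24. The largest were 91.2% for Rpl23a, 58.5% for Rpl35, 33.5% for Rpl34, 32.5% for Rpl32, 29.0% for Rpl35a and 26.8% for Rpl11. By a chi-square test of the recovered reads with Benjamini-Hochberg adjustment, 79 of 80 members varied between libraries beyond counting error, against 88.1% of all genes tested. The exception was Rps27rt, at an adjusted chi-square p of 0.707.

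No member passed a test against genes of the same abundance. The variance of each gene was compared with its abundance trend by limma with Benjamini-Hochberg adjustment over all genes, and 0 of 80 members passed, with 0% of all genes tested. The same count was 0 with voom weights on the recovered reads. At an unadjusted p under 0.05, 2 members passed against 5.75% of all genes. They were Rpl23a, at a limma p of 0.0034 and an adjusted p of 0.64, and Rpl35, at an unadjusted p of 0.011 and an adjusted p of 0.68. A library stood apart from the other 4, by Dixon's criterion for the gap over the range, in 5 of 80 members against 9.79% of all genes tested. In 4 of them, Rps12, Rpsa, Rpl23a and Rpl35a, it was library 3 at the high end, against 6.23% of all genes tested. The median ratio of variance to trend was 1.24 for the members and 0.97 for all genes. On simulated data this test recovered 0% of genes with 2 times the SD and 48% of those with 64 times the SD, so it could find only very large spreads here.

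Related members were compared within each library, by FPKM and by reads per kilobase of coding sequence, since the gene length behind the FPKM values differs between partners. The second measure divides all reads of a gene, those from untranslated parts included, by the coding length. Rpl22, the form that usually predominates in ribosomes and is known to repress its relative Rpl22l1, stood at 48.7, 48.1, 66.4, 58.0 and 44.6 FPKM. By FPKM it was below Rpl22l1 in 5 of 5 libraries, and Rpl22 minus Rpl22l1 was -0.50 ± 0.31 on the log2(FPKM + 1) scale (SD, n = 5), from -0.13 in library 4 to -0.86 in library 5. Its length behind FPKM is 2051 bases against 489 for Rpl22l1. Per coding length the direction turned: Rpl22 was higher in 5 of 5 libraries, by 1.48 ± 0.31, at means of 284 and 101. Which of these forms is the more abundant thus depends on the length used.

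Rpl36a, which is X-linked, and its autosomal copy Rpl36al differed by 0.60 ± 0.12 by FPKM but by -0.04 ± 0.12 per coding length, with Rpl36a higher in 2 libraries and Rpl36al in 3. No direction is given for this pair, which also shares 83.6% and 59.0% of its windows with other genes. The pairs below had the same sign in 5 of 5 libraries under both lengths. Rps27 exceeded Rps27l, a form induced by p53, by 2.27 ± 0.17 by FPKM, with library 3 lowest at 1.97 and the others between 2.26 and 2.38, and by 1.43 ± 0.17 per coding length. Rpl7 exceeded Rpl7l1, a relative that acts in ribosome assembly, by 3.63 ± 0.13 and by 2.87 ± 0.13 per coding length.

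Rpl39 exceeded Rpl39l by 6.58 ± 0.31 by FPKM and by 7.89 ± 0.70 per coding length, differences that depend on the pseudocount of 1 because Rpl39l rests on 0 to 6 reads in a library. Rpl10 averaged 371 FPKM while Rpl10l was listed at 0, so no ratio was formed. By FPKM each of the 6 pairs reached p = 0.0625, adjusted p = 0.0625 over the 6 pairs, by an exact permutation of signs over the libraries (two-sided). That is the smallest p that 5 libraries allow, and the design cannot reach 0.05.

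The levels of the members also depend on the gene length by which the authors divided. The length that turns the values into whole reads ran from 255 bases for Rps27 to 5130 bases for Rps15a, with a median of 929, whereas coding lengths ran from 75 to 1257 bases with a median of 448.5. Across the 80 members, which are not independent replicates, the Spearman correlation of mean FPKM with that length was -0.46, as a description. FPKM is itself divided by that length, so a negative value can arise by construction. With the level per coding length in place of FPKM the correlation was -0.16. Recomputed per kilobase of coding sequence in place of that length, with the same library totals, the SD of the log2 levels between members went from 1.45 to 1.24. All reads of a gene are counted here, those from untranslated parts included. The level is therefore raised most where the coding sequence is a small part of the gene length. For Rpl41 the length behind FPKM is 695 bases and the coding length 75. Rpl41, at rank 27 by FPKM, came first at 2509 ± 632, ahead of Rplp1 at 1262 and Rps29 at 1140. Rps15a went from 23.3 FPKM to 306 per kilobase of coding sequence, Rps20 from 49.5 to 514, Rpl35a from 21.9 to 189 and Rpl30 from 20.6 to 144. Rpl23a stayed low at 31.5 and Rps27rt at 3.003. For 27 of the 80 members the length is not an annotated one but the shortest that gives whole reads, so their levels per coding length rest on that choice.

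**Figure D4:**
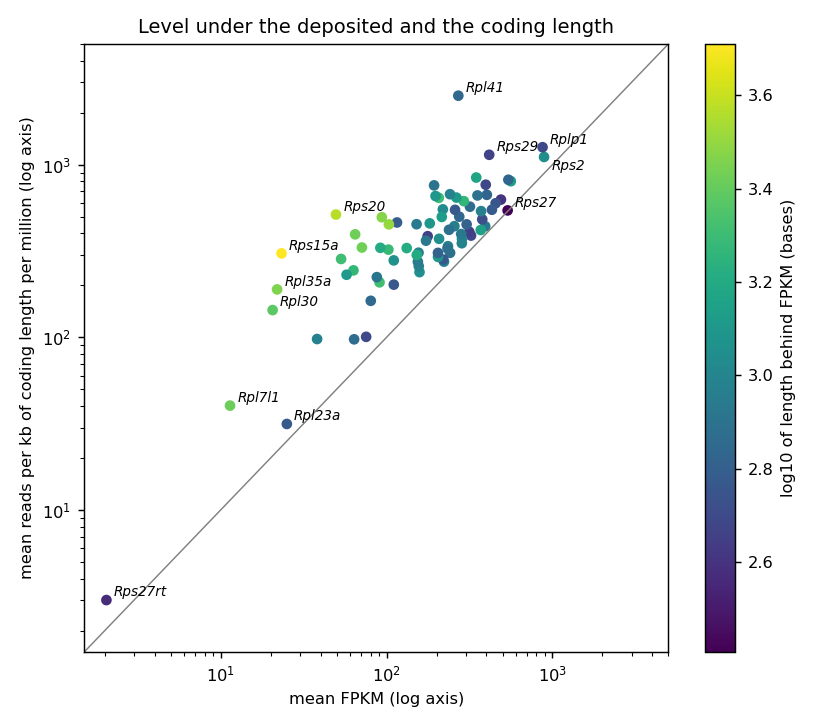
Mean level of each of the 80 members by FPKM (horizontal, log axis) and by all reads of the gene per kilobase of coding sequence (vertical, log axis). Colour gives the log10 of the gene length behind the FPKM value, and the line marks equal values. Members with long gene models such as Rps15a and Rps20 lie far above the line, and Rpl41, with 75 coding bases, has the highest level per coding length at 2509.

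Ribosomal protein genes have many processed copies in the genome. A median of 41.0% of the 100-base windows of a member is found letter for letter in another gene, 32 of the 80 members share over 50%, and 6 share none. As descriptions across the 80 members, the Spearman correlation of the excess in library 3 was -0.02 with the shared windows, -0.0029 with the coding length and -0.02 with the level per coding length. What shared sequence does to the levels was not tested. Without members with over 50% shared windows and those named as -like copies, library 3 was highest for 38 of the 45 left. That count uses FPKM as deposited, where library 3 was highest for 37.4% of all genes tested. Exons of 18 members overlap another gene of the table. Rpl35 overlaps Arpc5l, on the other strand, which stood at 22.4, 23.9, 18.7, 25.7 and 24.3 FPKM, with library 3 lowest. Rpl32 overlaps Cand2, on the other strand, at 40.7, 37.7, 40.3, 26.7 and 35.0. Rpl28 overlaps Ube2s, on the other strand, at 44.6, 45.2, 54.6, 55.7 and 44.3, with libraries 3 and 4 highest. Rps18 overlaps Vps52, on the other strand, at 19.0, 19.7, 21.7, 18.8 and 18.5, with library 3 highest. These overlapping genes thus went different ways. Whether strand was used in the counting was not given in the sources used here.

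Other genes of the translation system were read from fixed lists, and by limma no gene on them passed the adjusted threshold. Of the 5 cytosolic ribosomal proteins outside the set, 4 were highest in library 3 (2 with median-of-ratios scaling) and 3 had libraries 3 and 4 as their 2 highest. For all genes tested these shares were 37.4%, 27% and 9.52%, and the counts of the lists below stand against the same shares. Fau, made as a fusion with a ubiquitin-like protein, stood at 201, 219, 294, 257 and 188 FPKM, with libraries 3 and 4 highest. Rpl3 stood at 18.7, 23.1, 73.9, 19.3 and 17.3, high in library 3 alone, and its muscle form Rpl3l at 548, 591, 505, 583 and 532, lowest in library 3. The scaffold protein Rack1, also highest in libraries 3 and 4, stood at 52.7, 48.8, 73.6, 65.7 and 53.2.

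A list of 14 genes known for TOP messages held mostly translation factors, with Hnrnpa1, Npm1, Nap1l1 and Tpt1 beside them. Of the 14, 9 were highest in library 3, 5 with median-of-ratios scaling. Libraries 3 and 4 were the 2 highest for 10 of the 14 (9.52% of all genes tested). The summed levels of the list were 2584, 2843, 3849, 3262 and 2717 FPKM, in the order of the members' sum for the top libraries. The median excess in library 3 was 0.29. Tpt1, a growth-related protein with a classical TOP message, stood at 1150.1, 1209.8, 1408, 1406 and 1223 FPKM, and the elongation factor Eef2 at 475, 568, 766, 719 and 471. Eef1a1, which delivers aminoacyl-tRNA, stood at 216, 280, 710, 252 and 239, with library 3 alone high. Its muscle form Eef1a2, from the list of other translation factors below, stood at 1307, 1432, 1278, 1499 and 1279, with libraries 3 and 5 about level as the lowest.

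Of 14 other translation factors, 6 were highest in library 3 (37.4% of all genes tested), 5 with median-of-ratios scaling (27%), and 1 had libraries 3 and 4 on top (9.52%), with a median excess of 0.11 in library 3. Eif1, a start codon selection factor, stood at 443, 405, 346, 529 and 397 FPKM, and Eif5a, which eases the passage of difficult sequences, at 248, 246, 379, 278 and 243. Of 30 ribosome biogenesis genes, 16 were highest in library 3, 7 with median-of-ratios scaling, and 7 had both on top, with a median excess of 0.13. Polr1d, a subunit of RNA polymerase I, averaged 34.2 ± 4.41 FPKM, Nop10 28.2 ± 4.03 and nucleolin (Ncl) 25.5 ± 4.44.

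Of 14 regulators of TOP messages and growth, 5 were highest in library 3 (37.4% of all genes tested), 3 with median-of-ratios scaling (27%), and 2 had both on top (9.52%), with a median excess of 0.05 against 0.08 for all genes. Larp1 stood at 24.5, 18.5, 18.7, 19.5 and 24 FPKM, highest in libraries 1 and 5. The translation repressors Eif4ebp2 and Eif4ebp1 averaged 43.3 ± 7.26 and 40.3 ± 10.6. Myc, named after its values were seen, stood at 2.36, 2.35, 4.82, 2.37 and 2.45, high in library 3 alone. Of 10 genes of ribosome and p53 surveillance, 5 were highest in library 3, 1 with median-of-ratios scaling, and 2 had both on top. Cdkn1a, a p53 target that arrests the cell cycle, stood at 14.5, 26.8, 76.7, 36.6 and 17.2, in the order of the members at its top libraries, at an adjusted limma p of 0.64. Mdm2 and Trp53, on the same list and also named after their values were seen, did not share that order. Mdm2 stood at 15.8, 14.8, 14.8, 14.1 and 16.3, and Trp53 at 6.66, 5.57, 6.35, 5.92 and 4.70. Hbs1l and Zfp598, which act on stalled ribosomes, averaged 25.7 ± 1.46 and 15.5 ± 0.817.

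**Figure D5:**
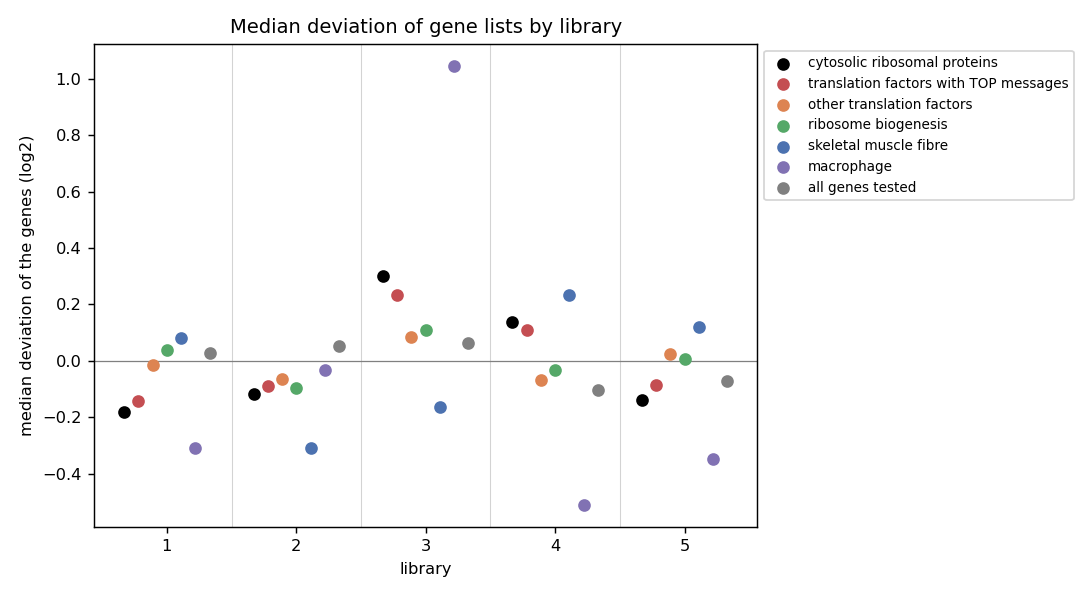
Median deviation from the own mean of each gene, as log2(FPKM + 1), by library for the members, 3 lists of the translation system, 2 marker lists and all genes tested. The members and the list of TOP messages, labelled as translation factors though it holds other genes too, are above 0 in libraries 3 and 4 only. The same held for 2 lists not plotted, the adipocyte markers (1.68 and 0.38) and the 5 other cytosolic ribosomal proteins (0.36 and 0.17). Macrophage markers reach 1.04 in library 3 and lie below 0 in library 4.

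Markers of other cells also differed between the libraries. The 10 macrophage markers were all highest in library 3 and summed to 103, 127, 375, 96.2 and 99.3 FPKM in libraries 1 to 5, with Lyz2 at 35.4, 46.8, 172, 37.6 and 29.7. In 0 of the 10 were libraries 3 and 4 the 2 highest. The 6 markers of regenerating or embryonic fibres were all highest in library 3 too, with sums of 86.3, 42.8, 218, 42.4 and 68.5. Actc1 made up most of each sum, at 75.6, 23.3, 116, 24.4 and 55.2. The median deviation of the 6 markers was lowest in library 1, at -0.74 on the log2 scale. Of the 6, Myog stood at 6.45, 9.96, 30.1, 11.4 and 7.90. Mymk, which fuses myoblasts, was listed at 0 in library 1 and reached 22.1 in library 3.

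Adipocyte markers had the same 2 top libraries as the members. All 4 were highest in library 3 with library 4 next, and they summed to 12.3, 10.4, 77.4, 29.7 and 10.9 FPKM. Adipoq stood at 5.64, 3.55, 33.6, 14.0 and 4.45, and none of the 4 markers was at 0 in any library. The 4 erythroid markers at 1 FPKM or more were all highest in library 3, and with Hba-a2 below the filter they summed to 328, 500.4, 1028, 338 and 473. Fibroblast and matrix markers were highest in library 3 for 4 of 6, with sums of 993, 1095, 1400, 761 and 843, and Schwann cell markers for 3 of 4, with sums of 82.8, 122, 182, 104 and 93.6.

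Fibre and endothelial markers went another way. None of the 8 fibre markers was highest in library 3, 4 were highest in library 4, and their sums were 92150, 73634, 80680, 102357 and 97442 FPKM. None of the 6 endothelial markers was highest in library 3, with sums of 86.2, 108, 84.6, 89.8 and 84.4. The 1 satellite cell marker at 1 FPKM or more, Chodl, stood at 4.73, 5.73, 2.93, 4.59 and 3.26. Of the satellite cell markers below the filter, Myf5 was highest in library 3, at 1.07 FPKM, and Pax7 and Calcr in library 1. No common direction is given for that list. The part of any of these cell types in the levels of the ribosomal protein genes was not tested.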

How the data were processed

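The table deposited by the authors gives a gene's level in each library as FPKM. Per the submitters' processing notes, STAR 2.5, HTSeq 0.6.1, TopHat, edgeR and DESeq2 were used with the build mm10, without a role for each. The annotation, strand setting and treatment of reads matching several genes were not given in the sources used here. Since FPKM is relative to the library total, a few abundant genes can lower all others.

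Of 35275 identifiers, 34490 were matched to GENCODE M21 (GRCm38). Within a library the values step by what 1 read is worth. A gene length that made all 5 values whole, within 0.001 of a read or 2e-07 of the count, was found for 20824 of 20840 genes above 0 (99.9%) and for 82 members; an annotated length was taken first, otherwise the shortest from 20 bases. These reads summed to 97.3% ± 0.157 (SD, n = 5) of the library totals. Counting error covers sampling only, and p-values measure only the spread between these samples.

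The design named a test for counts and one for normalized values; as the values are FPKM, limma 3.58.1 (R 4.3.3) was used on log2(FPKM + 1) for the 10710 genes whose mean was at least 1 FPKM. A gene's variance over its abundance trend was referred to an F distribution (4 and 3.93 degrees of freedom, upper tail), with Benjamini-Hochberg adjustment at 0.05. On simulated data for the 10710 genes, the adjusted p recovered 0%, 2%, 2% and 48% of 50 genes each at 2, 4, 8 and 64 times the SD, with 0 false calls. Shared sequence was counted as 100-base windows found in the transcripts of other genes. The other steps used matplotlib 3.10.9, scipy 1.17.1, pandas 2.3.3 and numpy 2.4.6 under Python 3.11.15.

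The members and the 15 gene lists (6 of pathways, 9 of cell markers) were chosen with earlier results of these data known. The rule for members given with values took the 8 highest, the 8 lowest, the 6 most and 6 least variable, paralog pairs, those not highest in library 3, those near the filter and members with known roles. Of each list it took the 3 genes with the highest mean; several marker lists are given by their sums only. A few items that the rule takes are not reported here.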

Additional observations from a re-analysis of the deposited data

Results flagged for a closer look

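In 5 members 1 library lay far from the other 4, by a gap over the range of the values above Dixon's 95% critical value, which chance alone exceeds in about 1 in 20 groups. Any library stood apart in this way for 9.79% of all genes tested, and library 3 at the high end for 6.23%. Library 3 was the one in each of the 5 members. It was the high library for Rps12 (445 FPKM), Rpsa (387 FPKM), Rpl23a (65.3 FPKM) and Rpl35a (33.1 FPKM), which is 4 of 80 members. It was the low library for Rpl30 (17.7 FPKM, with the other libraries between 20.9 and 21.6).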

How the results depend on the processing

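With median-of-ratios scaling 23 members in place of 64 were highest in library 3, and library 4 took most of the others; the shift of each library that this scaling makes is its construction. Without near-identical and -like copies 38 members, of 45 left, were highest in library 3 (37.4% of all genes tested). The members left summed to 10934 in place of 18422.5 FPKM because fewer genes enter. With TPM scaling the members summed to 37338. The large minus small subunit difference of -0.20 became -0.26 without a filter, -0.52 without copies and -0.28 with ribosomal protein genes outside the set added; the cause was not tested. Per coding length, an alternative chosen after seeing the data, it was -0.13, and the SD of log2 levels between members went from 1.45 to 1.24. The pair differences became 1.48 for Rpl22 over Rpl22l1 and -0.042 for Rpl36a over Rpl36al, both reversed, 1.43 for Rps27 over Rps27l, 2.87 for Rpl7 over Rpl7l1, 7.89 for Rpl39 over Rpl39l and 0.91 for Rplp1 over Rplp2; the lengths behind the values differ. With library 1, 2, 4 or 5 left out, 64 to 76 members were highest in library 3. That count cannot fall below 64 when another library is removed, so it is no test of the result. The median excess of library 3 was then 0.35 to 0.45 over the members and 0.06 to 0.10 over all genes tested. With each of the 5 libraries left out in turn, the members summed to 17465 to 18964 FPKM, the subunit difference was -0.21 to -0.18, and 77 to 79 members varied beyond counting error. The median coefficient of variation was 10.6% to 17.5%, lowest without library 3. No member passed the limma test under any of the 10 alternatives run for it. Pair differences kept their sign with a pseudocount of 0.1, which moved Rpl39 over Rpl39l from 6.58 to 8.76. No paired analysis was possible because all 5 samples belong to 1 group. Library 3 had the lowest depth, and Rpl24, Rpl39l and Rps27rt rest on at most 21 reads in a library.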
